A study of Mus musculus with 2 samples.

Results

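The cells described here are A20 tumour cells with the highest joint level of Chac1, Trib3 and Ddit3, transcripts that cells make during the integrated stress response. They were chosen from single-cell RNA counts of subcutaneous A20 tumours, 1 library from TAK-981-treated and 1 from vehicle-treated Balb/c mice. An A20 cell was a barcode with under 10% of its unique molecular identifiers (UMIs) from mitochondrial transcripts, at least 200 genes, at least 1 UMI of the B cell receptor chain Cd79a, and no UMI of Cd3d, Cd3e, Cd3g or Lyz2. Each cell was scored by the UMIs of the 3 genes per 10000 UMIs of the cell, and the highest 8% over both libraries together were taken. They numbered 316 of 3945 A20 cells, 176 of 1754 in the TAK-981 library and 140 of 2191 in the vehicle library, and are called stress-high cells. The other 3629 A20 cells, 1578 and 2051, are called remaining cells.

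A20 cells are lymphoma cells of the B lineage that arose in this same strain, so the hosts keep an intact immune system. Mice were inoculated with 1000000 cells in the left flank, and treatment began at tumour volumes of about 300 mm3. The treated animals received TAK-981 at 7.5 mg/kg into a vein, the controls the vehicle alone, 20% HPbCD, and tumours were taken after 8 h. TAK-981 is an inhibitor of SUMO activation, the first step by which this ubiquitin-like modifier is joined to its targets, many of which regulate transcription. How many mice stand behind each library is not given in the labels. With 1 library per arm there is no replicate and no test, and every interval below is a 95% interval for counting error, which leaves out differences between mice and between cells.

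The integrated stress response is a relay that cells use when amino acids run short, when proteins misfold in the endoplasmic reticulum (ER), when haem is lacking or when viral RNA is present. Each of these conditions has its own kinase, all of which phosphorylate the initiation factor eIF2, and most translation then slows while that of the mRNA for the transcription factor ATF4 goes up. ATF4, with C/EBP partners, switches on genes for amino acid uptake, amino acid synthesis and tRNA charging, feedback regulators, and the factor CHOP (gene Ddit3), which is linked to cell death when stress lasts. Chac1 encodes an enzyme that breaks down glutathione, and Trib3 a pseudokinase that binds and restrains ATF4 and AKT. Tumour cells, B cell tumours among them, are known to lean on this pathway when nutrients are scarce.

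Promoters of the 3 score genes and of 2 further ATF4 targets are shown because the bound element of ATF4 and C/EBP partners has a known core, TGATGNAA, which was searched on both strands. Each sequence runs from 250 bases before to 50 bases after the annotated start (RefSeq, GRCm38.p6), 5' to 3' on the gene's strand, with the core in capitals (in either orientation). The windows are chr2:119350992-119351291 on the plus strand for Chac1, chr2:152344011-152344310 on the minus strand for Trib3, chr10:127290543-127290842 on the plus strand for Ddit3, chr6:7693160-7693459 on the minus strand for Asns and chr1:191183284-191183583 on the minus strand for Atf3.
Chac1: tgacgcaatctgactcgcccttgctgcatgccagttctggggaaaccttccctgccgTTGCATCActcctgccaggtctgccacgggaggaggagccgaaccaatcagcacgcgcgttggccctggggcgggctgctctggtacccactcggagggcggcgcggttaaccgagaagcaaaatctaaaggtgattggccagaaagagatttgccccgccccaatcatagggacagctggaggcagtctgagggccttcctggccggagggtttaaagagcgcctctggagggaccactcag
Trib3: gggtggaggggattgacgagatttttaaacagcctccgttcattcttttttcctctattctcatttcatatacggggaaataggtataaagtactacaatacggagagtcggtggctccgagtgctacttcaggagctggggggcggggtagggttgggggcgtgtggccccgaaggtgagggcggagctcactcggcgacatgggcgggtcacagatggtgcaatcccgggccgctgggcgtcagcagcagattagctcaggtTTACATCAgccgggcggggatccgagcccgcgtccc
Ddit3: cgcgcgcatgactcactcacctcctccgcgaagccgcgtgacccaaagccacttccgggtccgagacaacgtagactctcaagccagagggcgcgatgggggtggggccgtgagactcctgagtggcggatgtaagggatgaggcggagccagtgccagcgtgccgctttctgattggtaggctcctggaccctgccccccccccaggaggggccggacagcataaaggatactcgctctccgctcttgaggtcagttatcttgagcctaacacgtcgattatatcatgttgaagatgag
Asns: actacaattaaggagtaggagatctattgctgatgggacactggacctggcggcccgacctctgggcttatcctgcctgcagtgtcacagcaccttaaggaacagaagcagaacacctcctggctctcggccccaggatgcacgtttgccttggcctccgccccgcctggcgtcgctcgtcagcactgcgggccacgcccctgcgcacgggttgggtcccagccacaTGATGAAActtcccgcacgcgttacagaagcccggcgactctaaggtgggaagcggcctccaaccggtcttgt
Atf3: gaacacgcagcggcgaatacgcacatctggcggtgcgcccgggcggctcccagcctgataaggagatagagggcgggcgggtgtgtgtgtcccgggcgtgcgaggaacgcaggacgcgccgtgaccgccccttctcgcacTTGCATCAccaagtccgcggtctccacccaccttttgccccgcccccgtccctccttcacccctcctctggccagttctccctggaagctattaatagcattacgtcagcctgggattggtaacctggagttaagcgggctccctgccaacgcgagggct
Chac1, Trib3, Asns and Atf3 held the core once each, and the Ddit3 window did not hold these letters. The core was found in 1304 of 32851 promoters of the RefSeq table (3.97%) and in 171 of 6786 matched genes among those measured in both libraries (2.52%). Among the 38 ATF4 targets that matched the table, 12 held it (31.6%), namely Aars, Asns, Atf3, Gars, Got1, Herpud1, Iars, Pck2, Pycr1, Slc1a4, Tars and Yars. Of the 168 matched genes that were at least 2-fold higher in stress-high cells in both libraries, 6 held it (3.57%). Several of the genes with the largest differences below, Atf4, Cebpb, Cebpg, Gadd45a, Ppp1r15a, Sesn2, Slc3a2, Snhg12 and Tmem140 among them, had no such letters in their windows. The matches are a description of these letters and were not tested for binding.

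The deposited matrices held 2396 barcodes with 37470319 UMIs for TAK-981 and 2579 barcodes with 57471750 UMIs for vehicle, and no barcode had under 4670 UMIs. Mitochondrial UMIs reached 10% in 376 TAK-981 barcodes and 124 vehicle barcodes, so the TAK-981 library was shallower and lost more barcodes to this filter. Between the libraries, 11 barcode sequences were shared, 10 of them A20 cells and 1 a stress-high cell.

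Stress-high cells carried B cell transcripts, some of them at lower frequency than the other tumour cells. In the TAK-981 library Cd79b was detected in 89.8% of stress-high and 89.4% of remaining cells, and Ms4a1 (CD20) in 82.4% and 80.5%. The vehicle library gave 95% and 92.7% for Cd79b and 86.4% and 82.1% for Ms4a1. Xist, which cells of female animals express, had a UMI in 1 of 176 and 0 of 140 stress-high cells with TAK-981 and with vehicle (exact upper limit for 0 of 140, 2.60%), against 8 of 1578 and 22 of 2051 remaining cells. Host B cells share the other markers and cannot be told apart by them. Markers of T cells summed to 14.5 UMIs per 1000000 UMIs of the class (CPM) in stress-high and 17.3 CPM in remaining cells with TAK-981, and to 21.8 and 19.7 CPM with vehicle. Monocyte and macrophage markers summed to 4.82 and 7.09 CPM, and 4.75 and 8.18 CPM, and those of neutrophils, stroma and red cells to 2.22 CPM or less in every class. Jchain, the joining chain of secreted immunoglobulin, was less frequent: thinned to 4000 UMIs, it had a UMI in 73.9% of stress-high and 87.9% of remaining cells with TAK-981, and in 74.3% and 87.0% with vehicle. The B cell receptor regulator Cd22 was found in 18.8% and 28.5% with TAK-981, and in 17.9% and 27.6% with vehicle. In the comparison described below, 6 of 15 B cell identity genes were below 0 in both libraries and 6 were above 0 in both. Of 11 plasma cell and secretory genes, 1 was below 0 in both and 6 were above 0 in both. Of all genes, 21.5% were below 0 in both and 59.6% above 0 in both. NK cell markers summed to 13.5 and 6.75 CPM with TAK-981, and 0.32 and 1.61 CPM with vehicle. Dendritic cell markers summed to 344 and 276 CPM, and 232 and 220.0 CPM, mostly through Bst2, which is also an interferon-stimulated gene.

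The score rests on few molecules per cell. In the TAK-981 library, stress-high cells had a lowest score of 3.43, a median of 5.12 and a highest of 17.4 UMIs per 10000, with a median of 9 score UMIs (from 2 to 34), against a median score of 0.46 in remaining cells. In the vehicle library the lowest was 3.42, the median 4.78 and the highest 19.5, with a median of 12 score UMIs (3 to 38), against a median score of 0.54. All 3 genes were detected in 93 of 176 and 89 of 140 stress-high cells, 2 genes in 68 and 48, and 1 gene in 15 and 3. The last cells inside the limit scored 3.423, 3.433 and 3.437 and the first outside it 3.418, 3.415 and 3.404, so the limit divides a continuous range.

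By this choice, Chac1 stood at 113 CPM in stress-high and 8.96 CPM in remaining cells with TAK-981, and at 93.7 and 5.80 CPM with vehicle. Trib3 stood at 238 and 38.1 CPM with TAK-981 and at 245 and 44.5 CPM with vehicle, and Ddit3 at 215 and 37.3 CPM, and 207 and 32.3 CPM. These values chose the cells and are given as a description. Barcodes with a CD3 chain UMI or with Lyz2, each without Cd79a and the other marker, served as cells of other types (T cells and Lyz2-positive cells). Chac1 had no UMI in 37 T cells and 38 Lyz2-positive cells of the TAK-981 library or in 49 T cells and 39 Lyz2-positive cells of the vehicle library, with exact upper limits of 9.49%, 9.25%, 7.25% and 9.03%. The cells compared had 60.2% and 68.6% with a Chac1 UMI when stress-high and 10.5% and 9.85% when remaining, at median depths of 16566.5 and 22051, and 16148 and 22311 UMIs. The T cells and Lyz2-positive cells were shallower, with medians from 6698 to 9706 UMIs. Thinned to 4000 UMIs, 32.4% and 31.4% of stress-high and 3.42% and 1.80% of remaining cells had a Chac1 UMI, so the remaining cells lie within the upper limits of the other cell types. Ddit3 was found in 29.7% of T cells with TAK-981 and in 18.4% with vehicle, so a Ddit3 UMI alone marks no class of cell.

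Stress-high cells were as deep as the remaining cells but held more genes. The median number of genes was 3732 in stress-high and 3349 in remaining cells with TAK-981, and 4252 and 3899 with vehicle. Mitochondrial shares were alike, with medians of 2.58% and 2.61% with TAK-981, and 2.07% and 2.05% with vehicle. For each gene, UMIs were summed over the cells of a class within a library and compared as a log2 ratio of CPM, stress-high over remaining, where 1 is a 2-fold difference. Over all genes the median ratio was not 0 but 0.25 with TAK-981 and 0.20 with vehicle, and values are to be read against these shifts. Since the cells were chosen on transcripts of the same libraries, all ratios between stress-high and remaining cells are a description.

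Of 8773 genes with enough UMIs in both libraries (at least 10 expected in the smaller class), 228 (2.60%) were at least 2-fold higher in stress-high cells in both and 32 (0.365%) at least 2-fold lower. Scaled by the median of ratios, which removes the shift, 88 were higher and 78 lower. With TAK-981, 391 of 8992 genes were at least 2-fold higher (4.35%), 75 at least 2-fold lower (0.834%) and 72.1% above 0. With vehicle, 477 of 8830 were at least 2-fold higher (5.4%), 130 at least 2-fold lower (1.47%) and 66% above 0. The shared higher genes made up 65.7% of those called in the TAK-981 library and 48.2% of those in the vehicle library, among the genes measured in both. ATF4 targets other than the score genes were set against these backgrounds: of 60 listed, 49 had enough UMIs, 10 were at least 2-fold higher in both libraries and 44 were above 0 in both, where 59.6% of all genes were above 0 in both (21.5% were below 0 in both). Counted from the all-gene shifts, 5 targets with TAK-981 and 7 with vehicle were at least 2-fold higher. The median log2 ratio of the targets was 0.54 with TAK-981 and 0.56 with vehicle. Summed, they made up 8828 CPM in stress-high and 6067 CPM in remaining cells with TAK-981, and 9681 and 6834 CPM with vehicle.

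The excess was a property of most stress-high cells and not of a few. Per cell, ATF4 targets took a lowest of 20.0, a median of 86.3 and a highest of 161 UMIs per 10000 in stress-high cells with TAK-981, against 0.77, 57.7 and 161 in remaining cells. With vehicle the same values were 30.8, 93.4 and 188 in stress-high cells against 0, 67.5 and 191 in remaining cells. The ranges overlapped, and 152 of 176 stress-high cells (86.4%, 80.4 to 91.1%) and 117 of 140 (83.6%, 76.4 to 89.3%) lay above the median of the remaining cells of their library. Cells with 1 score gene were an exception: the 15 such cells of the TAK-981 library, with a median of 7832 UMIs, had 5383 CPM of ATF4 targets, below the 8683 CPM of the 68 cells with 2 genes and the 9142 CPM of the 93 cells with 3.

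**Figure D1:**
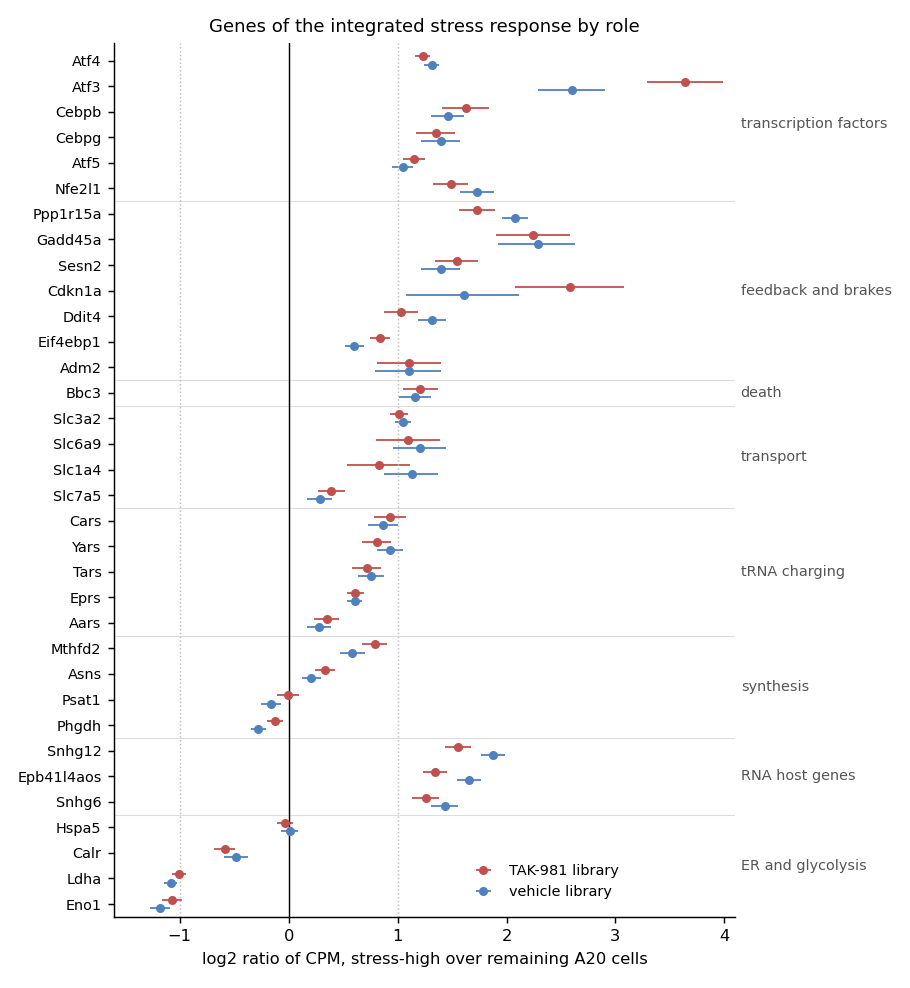
Log2 ratio of CPM, stress-high over remaining A20 cells, for named genes by role, with 95% counting intervals; red points are the TAK-981 and blue points the vehicle library, the dotted lines 2-fold. Atf3 lies farthest to the right at 3.64 and 2.60, Snhg12 at 1.56 and 1.88, and Ldha and Eno1 lie to the left of -1 in both libraries.

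Transcription factors of the pathway were the group with the highest median among the ATF4-linked lists, 1.29 with TAK-981 and 1.35 with vehicle. Of 8 measured members, 6 were at least 2-fold higher in both libraries. Counted from the all-gene shifts, 4 with TAK-981 and 5 with vehicle were at least 2-fold higher. Atf4 itself, the central factor of the response, stood at 629 CPM in stress-high and 268 CPM in remaining cells with TAK-981, and at 659.8 and 266 CPM with vehicle. Its log2 ratios were 1.23 (1.16 to 1.30) and 1.31 (1.24 to 1.38). Atf3, an ATF4 target that acts early in many stresses, had the largest ratio of the group, 3.64 and 2.60, from 51.8 and 4.16 CPM with TAK-981, and 39.6 and 6.52 CPM with vehicle. It was sparse, with a UMI in 27.8% of stress-high and 4.50% of remaining cells with TAK-981, and in 28.6% and 8.00% with vehicle. Lyz2-positive cells had an Atf3 UMI more often, in 81.6% with TAK-981 and 89.7% with vehicle. Thinned to 4000 UMIs, these were 68.4% and 74.4%, against 11.4% and 12.1% of stress-high cells. An Atf3 UMI is therefore not particular to stress-high cells. Cebpg, a dimer partner of ATF4, had ratios of 1.35 and 1.40, and Cebpb, a partner active in inflammation, 1.63 and 1.46. Atf5, which is translated under eIF2 phosphorylation in the manner of ATF4, had 1.15 and 1.05. Nfe2l1, which drives proteasome genes, had 1.49 and 1.73. The remaining measured members, Nfe2l2 and Atf2, lay near the all-gene shift, Nfe2l2 at 0.28 and 0.17 and Atf2 at 0.36 and 0.08. Nupr1 and Jdp2 had too few UMIs.

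Of 5 genes for eIF2 phosphatases and other feedback, 1 was at least 2-fold higher in both libraries, and the medians of 0.50 and 0.23 were nearer to the shift than those of the growth brakes, 1.09 and 1.11. The 1 gene was Ppp1r15a (GADD34), the subunit that brings a phosphatase to eIF2 and so ends the response. It stood at 132 and 39.7 CPM with TAK-981 and at 224 and 53.1 CPM with vehicle, with ratios of 1.73 and 2.08. Ppp1r15b, its constitutive relative, had 0.50 and 0.20, at or near the shift in the vehicle library. Among 9 growth brakes and secreted ATF4 targets measured in both libraries, all 9 were above 0 in both, against 59.6% of all genes. Of the 9, 5 were at least 2-fold higher in both. Counted from the shift, 4 of 10 measured with TAK-981 and 4 of 9 with vehicle were at least 2-fold higher. Sesn2 (Sestrin 2), which restrains mTORC1 when leucine is low, had a UMI in 65.3% of stress-high and 33.7% of remaining cells with TAK-981, and in 76.4% and 44.3% with vehicle, with ratios of 1.54 and 1.40. Ddit4 (REDD1), another brake on mTORC1, had 1.03 and 1.32, and Eif4ebp1, which holds back cap-dependent translation, 0.84 and 0.60. Gadd45a, a growth arrest gene, had 2.25 and 2.29, from 35.4 and 7.46 CPM, and 28.2 and 5.78 CPM. Cdkn1a (p21), an inhibitor of the cell cycle kinases, had 2.58 and 1.61, but 7 of 140 vehicle cells carried all of its UMIs and a single cell 64.1% of them. Adm2, a secreted peptide, had 1.11 and 1.10. The hormones Fgf21 and Gdf15 had at most 3 UMIs in any stress-high class, and no UMI of Vldlr or Stc2 was found in any A20 cell.

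Genes of amino acid supply differed by less, and unevenly. In transport, 11 of 12 measured genes were above 0 in both libraries, against 59.6% of all genes, with medians of 0.43 and 0.64. Counted from the shift, 0 with TAK-981 and 1 with vehicle were at least 2-fold higher. Without that correction, 2 were at least 2-fold higher in both libraries. These were Slc3a2, the heavy chain of large neutral amino acid exchangers, at 1.01 and 1.05, and the glycine transporter Slc6a9 at 1.10 and 1.21. Slc3a2 stood at 494 and 244 CPM with TAK-981 and at 555 and 268 CPM with vehicle. Its light chain partner Slc7a5 (LAT1) had only 0.39 and 0.29, close to the shift. Slc7a11, the cystine exchanger, had 3 and 4 UMIs in the stress-high classes and could not be compared. In tRNA charging, all 14 aminoacyl-tRNA synthetases linked to ATF4 were above 0 in both libraries and none reached 2-fold in both, with medians of 0.54 and 0.46. Cars had 0.93 and 0.87, Yars 0.81 and 0.93, Tars 0.72 and 0.75, and Eprs 0.61 and 0.61. The 7 synthetases not linked to ATF4 had medians of 0.14 and -0.00, 3 of them above 0 in both libraries, and Kars stood lower in stress-high cells at -0.46 and -0.46.

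The enzymes that make amino acids stood near the shift. Over 13 genes of amino acid and one-carbon synthesis the medians were 0.38 and 0.37, and none was at least 2-fold higher. Asns, which makes asparagine and is among the classic ATF4 targets, stood at 337 and 268 CPM with TAK-981 and at 368 and 318 CPM with vehicle, ratios of 0.33 and 0.21 that hardly exceed the shift. Phgdh and Psat1, which start serine synthesis, were not higher: Phgdh had -0.12 and -0.28, and Psat1 -0.01 and -0.16. Mthfd2, the mitochondrial folate enzyme, had 0.79 and 0.58, the transaminase Gpt2 0.87 and 0.79, and Got1 0.65 and 0.83. Asns was already detected in 83.7% of remaining cells with TAK-981 and in 91.4% with vehicle.

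The kinases that start the response did not move together: Eif2ak3 and Eif2ak4 stood below the all-gene shift, Eif2ak1 and Eif2ak2 above it. Over 14 genes for the kinases, eIF2 and eIF2B the medians were 0.29 and 0.38, and none was at least 2-fold higher. Eif2ak3 (PERK), the sensor of the ER, had -0.26 and -0.31, and Eif2ak4 (GCN2), the sensor of uncharged tRNA, -0.37 and -0.24, all with intervals that include 0. Eif2ak1 (HRI), the haem-regulated kinase, had 0.38 and 0.59. Eif2ak2 (PKR), which is both a sensor of double-stranded RNA and an interferon-stimulated gene, had 0.58 and 0.47. These kinases act through phosphorylation, which RNA counts do not measure.

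Markers of ER stress were divided. The 26 ER chaperones and targets of XBP1 or ATF6 had medians of -0.04 and 0.01, under the all-gene shift, with 10 above 0 and 11 below 0 in both libraries. Hspa5 (BiP), the main ER chaperone, stood at 549.6 CPM in stress-high and 562 CPM in remaining cells with TAK-981, and at 466 and 464 CPM with vehicle, ratios of -0.03 and 0.01. Calr was lower in stress-high cells at -0.59 and -0.49, and Hsp90b1 at -0.21 and -0.48. Herpud1, which ATF4 also drives, was higher at 0.84 and 1.11, Xbp1 at 0.65 and 0.64, and Ern1 (IRE1), the enzyme that splices Xbp1, at 1.60 and 1.27. Cytosolic heat shock genes had medians of -0.04 and -0.30, with 8 of 13 below 0 in both libraries. Oxidative stress genes had medians of -0.39 and -0.40, with 9 of 12 below 0 in both. Of all genes, 59.6% were above 0 in both and 21.5% below 0 in both. Prdx1, a peroxide-reducing enzyme, stood at 597 and 1089 CPM with TAK-981 and at 566 and 1175 CPM with vehicle. Hmox1, the haem oxygenase that responds to oxidants, had ratios of -0.27 and -0.29.

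Among death genes linked to CHOP, Bbc3 (PUMA) and Ppp1r15a, described above, were at least 2-fold higher in both libraries. Bbc3, a BH3-only protein that starts apoptosis, stood at 124 and 53.4 CPM with TAK-981 and at 139 and 62.2 CPM with vehicle, with ratios of 1.21 and 1.16, and was detected in 75% and 47.2% of cells with TAK-981 and in 81.4% and 56.9% with vehicle. The list had medians of 0.27 over 13 genes with TAK-981 and 0.06 over 12 genes with vehicle. Of the 12 measured in both libraries, Bbc3 and Ppp1r15a were the 2 at least 2-fold higher in both. Bcl2l11 (BIM) had 0.11 and 0.04, below the shift. Among autophagy genes, 10 of 12 were above 0 in both libraries, against 59.6% of all genes, with medians of 0.37 and 0.58. The cargo receptor Sqstm1 (p62) had 0.97 and 0.80 and Atg12 0.94 and 1.34.

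Host transcripts of small nucleolar RNAs stood with the pathway. These spliced noncoding RNAs carry snoRNAs in their introns and are removed by nonsense-mediated decay, which needs translation. Snhg12 stood at 235 CPM in stress-high and 80.0 CPM in remaining cells with TAK-981, and at 281 and 76.5 CPM with vehicle, with ratios of 1.56 (1.44 to 1.68) and 1.88 (1.77 to 1.98). It was detected in 73.9% of stress-high and 52.4% of remaining cells with TAK-981, and in 81.4% and 62.7% with vehicle. Thinned to 4000 UMIs, these were 40.9% and 21.4% with TAK-981, and 54.3% and 22.8% with vehicle. T cells so thinned had a Snhg12 UMI in 16.2% with TAK-981 and 32.7% with vehicle, and Lyz2-positive cells in 5.26% and 17.95%. A Snhg12 UMI alone thus marks no class of cell. Epb41l4aos, also a snoRNA host, had 1.34 and 1.66, and Snhg6 1.26 and 1.43. Snhg20 did not follow, with 0.03 and -0.37. Of 18 host genes listed, 7 could be found by name and these 4 had enough UMIs, so the medians of 1.30 and 1.54 speak for few genes. How strand was used in counting is not given in the sources used here, and Epb41l4aos is antisense to another gene, so its reads cannot be told apart from that gene's.

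**Figure D2:**
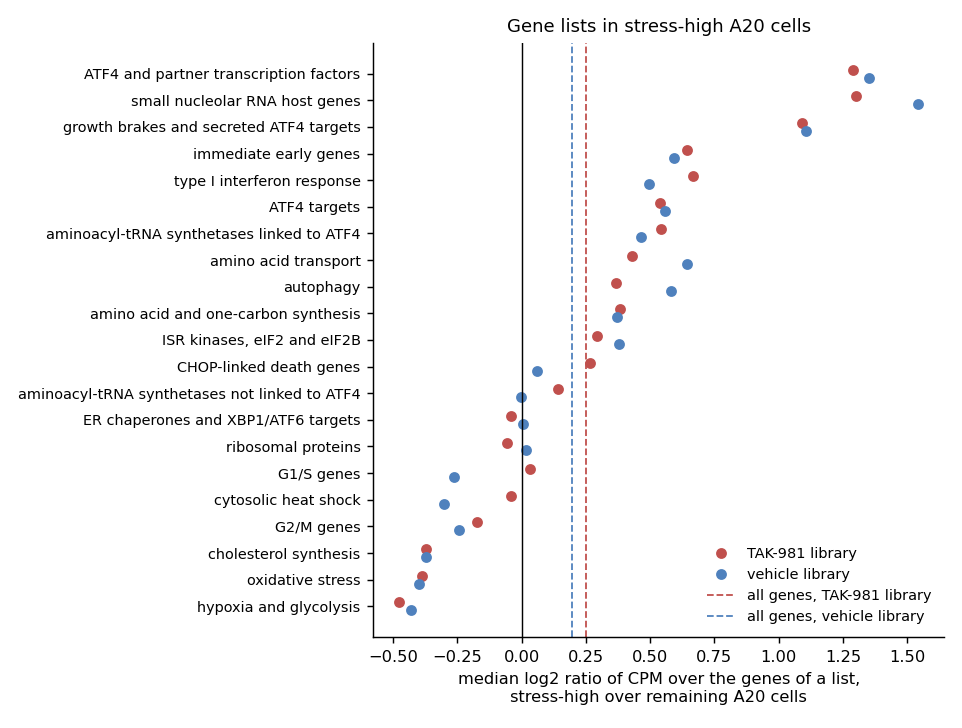
Median log2 ratio of CPM, stress-high over remaining A20 cells, over the measured genes of 21 lists; red points are the TAK-981 and blue points the vehicle library, and dashed lines the medians of all genes, 0.25 and 0.20. The ATF4-linked transcription factors, snoRNA host genes and growth brakes lie above 1 in both libraries, and of the lists drawn hypoxia and glycolysis lies lowest at -0.48 and -0.43.

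Among the lists with at least 10 measured genes, hypoxia and glycolysis stood lowest. Of its 20 measured genes, 16 were below 0 in both libraries, against 21.5% of all genes, and together they made up 3781 CPM in stress-high and 6152 CPM in remaining cells with TAK-981, and 4269 and 6700 CPM with vehicle. Ldha, which makes lactate, stood at 684 and 1373 CPM with TAK-981 and at 741 and 1570.0 CPM with vehicle, ratios of -1.01 and -1.08. Eno1 (enolase) had -1.07 and -1.18, Pgk1 -0.95 and -0.83, and Bnip3, a mitophagy receptor under hypoxic control, -1.14 and -0.75. Vegfa, the endothelial growth factor, was on the other side at 1.07 and 0.76, and so was Ddit4, which this list shares with the growth brakes. Per cell, 23.9% of stress-high cells with TAK-981 and 22.9% with vehicle lay above the median of the remaining cells for this list. Cholesterol synthesis, whose medians were -0.37 and -0.37, had 14 of 18 genes below 0 in both libraries, Idi1 at -1.24 and -0.91 among them.

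Lists of cell cycle, ribosomal protein, B cell identity and MHC class II genes stood below the all-gene shift. The G2/M list lay 0.42 and 0.44 and the MHC class II list 0.43 and 0.47 under it on the log2 scale. The plasma cell and secretory list did not, with medians of 0.47 and 0.22 against shifts of 0.25 and 0.20. Cell cycle genes of G1/S had medians of 0.03 and -0.26, and those of G2/M -0.17 and -0.24. Of 20 G2/M genes, 13 were below 0 in both libraries, against 21.5% of all genes. Myc stood at 9.97 and 19.9 CPM with TAK-981 and at 8.23 and 19.8 CPM with vehicle, ratios of -1.0 and -1.27. Ribosomal protein genes had medians of -0.06 and 0.02. B cell identity genes had 0.03 and -0.08 and MHC class II genes -0.18 and -0.27, both under the shift, and Fcmr, the receptor for IgM, was lower at -1.04 and -1.34. The p53 targets had medians of 0.30 and 0.09, with Cdkn1a and Trp53inp1 (1.41 and 1.18) the 2 of 12 that were at least 2-fold higher in both.

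Immediate early and interferon genes were higher in stress-high cells of both libraries. Of 16 immediate early genes, 14 were above 0 in both, against 59.6% of all genes, with medians of 0.64 and 0.59. Klf6 had 1.28 and 1.26, Egr1 0.71 and 1.00, and Fos, part of the AP-1 factor, 0.72 and 0.96. The type I interferon list had a median of 0.66 over 38 genes with TAK-981 and 0.49 over 28 genes with vehicle, and 25 of the 28 genes measured in both were above 0 in both. Irf7, a factor that amplifies interferon production, stood at 118 and 61.1 CPM with TAK-981 and at 33.2 and 12.8 CPM with vehicle. Guanylate-binding and immunity-related GTPases, which interferon gamma also induces, had medians of 1.05 over 12 genes with TAK-981 and 1.68 over 6 with vehicle. Of the 6 measured in both libraries, 5 were at least 2-fold higher in both. In the vehicle library 1 of the 140 stress-high cells held 25.6% of the UMIs of that list, and without the richest cell of each class the medians were 0.98 and 1.55.

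Beyond the lists, the largest excess was in Tmem140, a membrane protein gene, at 31.5 and 4.97 CPM with TAK-981 and at 20.6 and 2.13 CPM with vehicle, ratios of 2.66 and 3.27. It had a UMI in 34 stress-high cells of each library, or 19.3% and 24.3%. The transcript 1810032O08Rik was more widespread, at 229 and 54.1 CPM with TAK-981 and at 299 and 42.5 CPM with vehicle, and was seen in 71.0% of stress-high and 36.2% of remaining cells, and in 76.4% and 43.0%. Others of the 15 highest were Rnd1, a small GTPase that loosens the actin cytoskeleton, at 1.97 and 1.92, 1600020E01Rik at 1.89 and 2.15, Tcta at 1.86 and 1.88, 5430416N02Rik at 1.79 and 2.1, Csprs at 1.78 and 1.81, N4bp2l1 at 1.75 and 2.01, Zfp874a at 1.82 and 1.65 and Gm13073 at 1.91 and 1.70. Bglap3 (1.81 and 3.25) and the histone gene Hist3h2ba (1.72 and 2.12) have near-identical relatives that could share reads, and 24.3% of the Bglap3 UMIs of vehicle stress-high cells came from 1 cell. Rules of rank also place Atf3, Gadd45a and Ppp1r15a among these 15.

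At the other end stood mostly genes with few UMIs. Phb (prohibitin), a scaffold of the inner mitochondrial membrane, was at 96.2 and 229 CPM with TAK-981 and at 97.2 and 266 CPM with vehicle, ratios of -1.25 and -1.45. Apoe, a lipid carrier, had -1.69 and -1.63, the ETS factor Etv4 -1.67 and -2.36, and Nab2, a repressor of EGR factors, -1.59 and -2.09. Car12, Etv4, Nab2, Angptl4, Il4i1 and the Dancr entry each had 6 UMIs or fewer in the stress-high cells of either library, so their sizes are uncertain. BC028528 (-1.57 and -1.58), Pls1 (-1.31 and -1.66) and the entry Dancr_ENSMUSG00000106943 (-1.73 and -1.31) complete the 10 lowest.

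**Figure D3:**
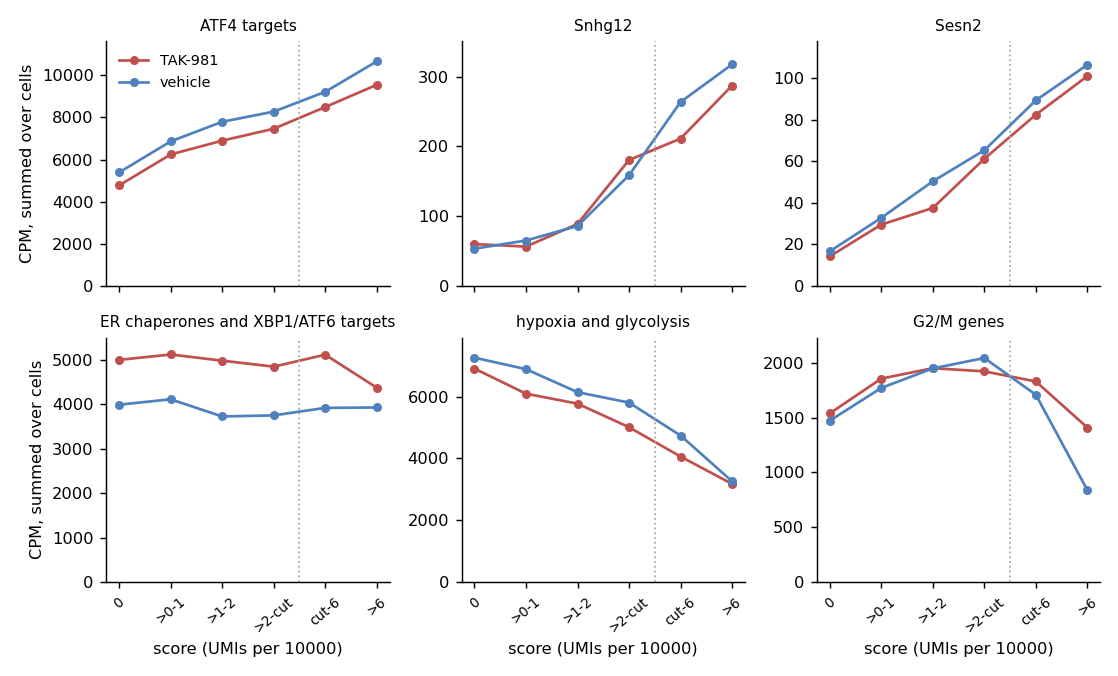
Summed CPM of 3 gene lists with the G2/M list, Snhg12 and Sesn2 across 6 bins of the score (UMIs of Chac1, Trib3 and Ddit3 per 10000), with TAK-981 in red and vehicle in blue; the dotted line is the limit for stress-high cells. ATF4 targets climb in every step from 4771 to 9549 CPM with TAK-981 and from 5389 to 10662 CPM with vehicle, and hypoxia and glycolysis declines in every step.

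The same genes were graded below the limit as well. Over 6 bins of the score, from 0 through up to 1, 2, the limit and 6 to over 6, ATF4 targets summed to 4771, 6242, 6895, 7463, 8492 and 9549 CPM with TAK-981. With vehicle they summed to 5389, 6862, 7792, 8276, 9217 and 10662 CPM, so each step of the score was a step of the list in both libraries. Hypoxia and glycolysis ran the other way, with 6911, 6099, 5776, 5013, 4063 and 3176 CPM with TAK-981, and 7264, 6893, 6148, 5810.0, 4744 and 3262 CPM with vehicle. Snhg12 had 59.8, 56.2 and 88.8 CPM in the lowest 3 bins with TAK-981 and then 180.5, 211 and 287 CPM, so most of its increase came after the lowest bins. With vehicle it had 53.2, 65.0 and 85.8 CPM, then 159, 264 and 318 CPM. G2/M genes did not follow a line: they were highest in the middle, 1951 CPM with TAK-981 and 2044 CPM with vehicle, and lowest over 6, 1409 and 839 CPM. Cells with a score of 0 were shallower, with medians of 10950.0 and 13691 UMIs, and the part of depth in their values was not tested. The bins over 6 held 64 and 45 cells.

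The share of A20 cells past the limit was larger with TAK-981, 10.0% (8.67 to 11.5%, exact binomial), against 6.39% (5.40 to 7.50%) with vehicle. The cells differed in depth, with medians of 16195 and 22309 UMIs, and in a shallow cell a single UMI weighs more in the score. With every cell thinned to 4000 UMIs, 11.2% (9.79 to 12.8%) of TAK-981 cells and 8.67% (7.53 to 9.93%) of vehicle cells kept at least 2 UMIs of the 3 genes. At least 1 UMI was kept by 32.2% (30.03 to 34.46%) and 28.7% (26.8 to 30.6%), and at least 3 by 4.39% (3.48 to 5.46%) and 2.97% (2.30 to 3.77%). At equal depth the share with TAK-981 was the larger at 1, 2 and 3 UMIs alike, and the intervals of the arms overlapped at each. Overlap of 2 intervals does not show that the shares are equal. These limits also differ from that of the score. Summed over all A20 cells, the genes did not act alike: Chac1 was at 18.9 CPM with TAK-981 and 11.0 CPM with vehicle, a 1.71-fold difference (1.53 to 1.92), and Ddit3 at 54.3 and 42.7 CPM, 1.27-fold (1.20 to 1.36). Trib3 was at 57.2 and 56.4 CPM, 1.01-fold (0.96 to 1.08), an interval that includes equality. More barcodes had been left out for mitochondrial UMIs with TAK-981, and the mitochondrial list was 0.33 higher on the log2 scale in its stress-high cells; the part of either in the share was not tested.

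**Figure D4:**
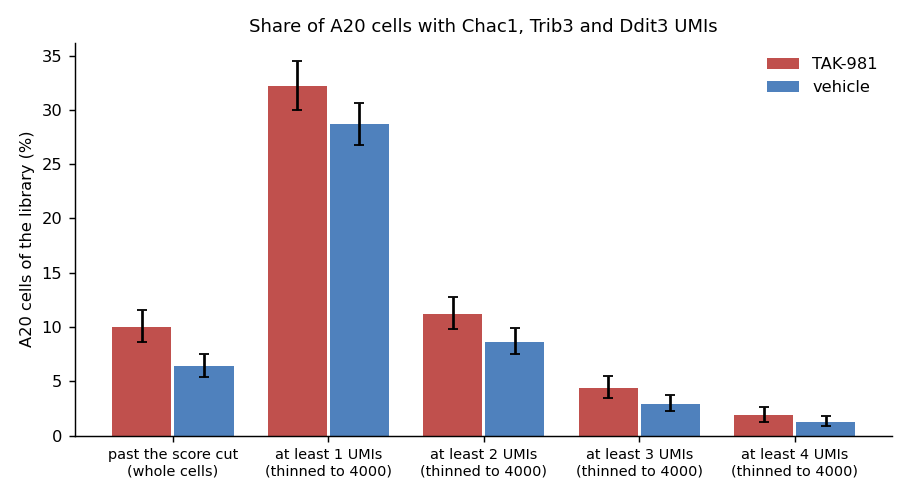
Share of A20 cells past the score limit in whole cells, and share keeping at least 1 to 4 UMIs of Chac1, Trib3 and Ddit3 after thinning to 4000 UMIs, with TAK-981 in red left of vehicle in blue and exact binomial 95% intervals for counting error. The bars past the limit stand at 10.0% and 6.39%, and those for at least 2 UMIs at 11.2% and 8.67%.

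Stress-high cells of both arms were chosen by the same limit on the score genes, which by itself brings their pathway levels closer together. The part of this choice in the comparison was not tested. In these cells ATF4 targets summed to 8828 CPM with TAK-981 and 9681 CPM with vehicle, 0.912-fold (0.897 to 0.927, counting error). In remaining cells the fold was 0.888 (0.883 to 0.893). Of the targets in stress-high cells, 37 were lower with TAK-981 and 12 higher, where 58.4% of all genes were higher. Over 49 ATF4 targets the median log2 ratio of TAK-981 over vehicle was -0.10, and -0.17 in remaining cells, where the medians of all genes were 0.06 and 0.04. No target was 2-fold higher or lower, against 2.36% of all genes higher and 0.473% lower in stress-high cells and 1.65% and 0.478% in remaining cells, and the counting interval lay below 0 for 20 of the 49 and above 0 for 2, against 6.07% and 12.2% of all genes. Atf4 was at 629 CPM with TAK-981 and 659.8 CPM with vehicle, a ratio of -0.07 (-0.16 to 0.02). The factors nearest to stress signalling were uneven. Ppp1r15a was lower with TAK-981, at 132 against 224 CPM (-0.77, -0.95 to -0.59), and Cebpb at 74.6 against 133 CPM (-0.83, -1.07 to -0.59). Atf3 was at 51.8 against 39.6 CPM in stress-high cells (0.39, 0.04 to 0.74) but at 4.16 against 6.52 CPM in remaining cells (-0.65), and the difference between these ratios was 1.04 (0.59 to 1.49, counting error). Intervals of that difference lay above 0 for 7.85% of all genes and below 0 for 5.58%.

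A few genes of the wider pathway were at least 2-fold higher with TAK-981. The death gene Bcl2l11 was at 141 CPM with TAK-981 and 64.2 CPM with vehicle in stress-high cells, a ratio of 1.14 (0.89 to 1.38). The remaining cells held it at 131 and 62.4 CPM, a ratio of 1.07. Eif2ak2 was at 46.3 and 17.4 CPM in stress-high cells (1.41, 0.95 to 1.89). Gadd45g, a growth arrest gene, had 30 UMIs with TAK-981 and 7 with vehicle (2.12, 0.91 to 3.55), 40% and 57.1% of them in 1 cell. Bbc3 was at 124 and 139 CPM in stress-high cells (-0.17, -0.37 to 0.03). The ER list was 0.34 higher with TAK-981 in stress-high and 0.27 in remaining cells, with Hsp90b1 at 492 and 236 CPM in stress-high cells. The counting interval lay above 0 for 15 of its 26 genes in stress-high and 23 in remaining cells, against 12.2% and 26.3% of all genes (17.9% lay below 0 in remaining cells).

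**Figure D5:**
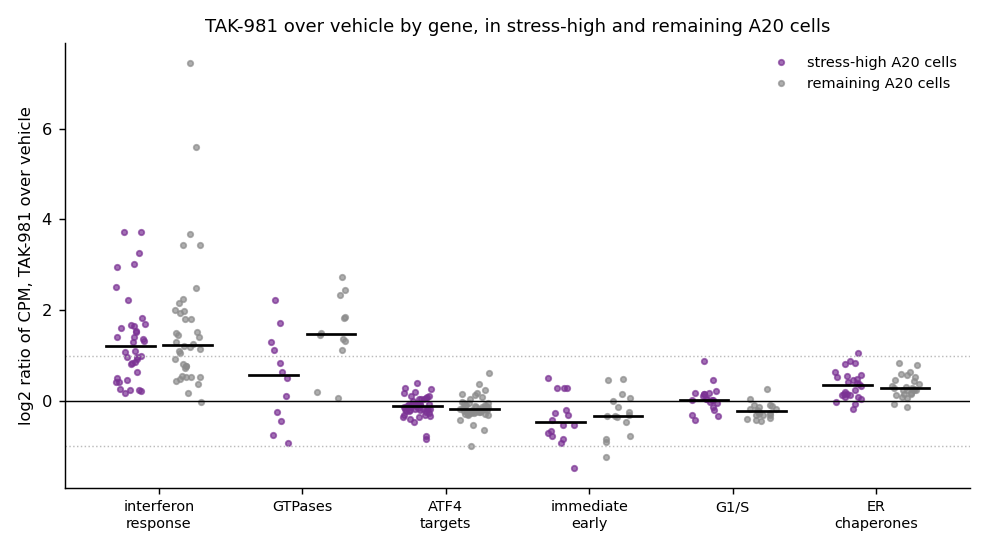
Log2 ratio of CPM, TAK-981 over vehicle, for each measured gene of 6 lists, in stress-high (purple) and remaining (grey) A20 cells; black bars are medians and dotted lines 2-fold. Rtp4 and Ifit3, with 0 UMIs in vehicle stress-high cells, are drawn at their lower bounds of 3.72 and 2.96, and the interferon medians stand at 1.20 and 1.23.

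Among the lists with at least 10 measured genes, interferon-stimulated genes had the largest median difference between the arms in stress-high cells. All 38 measured genes were higher with TAK-981, 21 of them at least 2-fold, where 58.4% of all genes were above 0 (57.3% in remaining cells). The median was 1.20 in stress-high cells, and 1.23 over the same genes in remaining cells. Isg15, a ubiquitin-like protein made on interferon, was at 83.9 CPM with TAK-981 and 10.4 CPM with vehicle in stress-high cells (3.01, 2.48 to 3.58) and at 45.4 and 4.17 CPM in remaining cells (3.45). Usp18, which removes ISG15 and damps the receptor, was at 66.3 and 6.96 CPM in stress-high cells (3.25, 2.61 to 3.96), and Irf7 at 118 and 33.2 CPM (1.83, 1.51 to 2.16). Rtp4 had 39 UMIs with TAK-981 and 0 with vehicle, at least 3.72 on the log2 scale, and Ifit3 23 and 0, at least 2.96, each with the floor of 3 counts over the class. Ifit3 has a near-identical copy, Ifit3b. The interval of the difference between the classes lay above 0 for 3 and below 0 for 6 of the 38 genes. Without the richest cell of each class the median in stress-high cells was 1.05. It then covered 35 genes with enough UMIs, Ifit3 not among them, and Ifih1 was below 0 at -0.10 (-1.43 to 1.21).

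The GTPases differed more between the classes. Their median for TAK-981 over vehicle was 0.56 in stress-high and 1.47 in remaining cells, and the interval of the difference lay below 0 for 7 of 12 genes. Gbp2 was at 50.5 CPM with TAK-981 and 59.8 CPM with vehicle in stress-high cells, but at 20.5 and 7.52 CPM in remaining cells. A single vehicle cell held 42.3% of its stress-high UMIs and 72.2% of those of Gbp7. Without the richest cell of each class, Gbp2 was at 43.5 and 34.8 CPM in stress-high cells (0.32, -0.05 to 0.70) and the list medians were 0.66 and 1.57. Gbp9 did not show the contrast, at 1.13 and 1.12 in the 2 classes.

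Of all genes, 58.4% were higher with TAK-981 in stress-high and 57.3% in remaining cells. Most immediate early genes were lower with TAK-981, 12 of 16 in stress-high and 13 of 20 in remaining cells, with medians of -0.47 and -0.33. The others were higher, in stress-high cells Klf6 (0.50), Ier5 (0.29), Klf2 (0.28) and Myc (0.28, an interval that includes 0, as for Ier5). Fos was at 96.8 CPM with TAK-981 and 268 CPM with vehicle in stress-high cells (-1.47, -1.66 to -1.28) and had a UMI in 41.5% and 71.4% of them. Ier2 stood at 64.3 and 115 CPM (-0.84) and Egr1 at 82.0 and 139 CPM (-0.76). Also among the 10 lowest were Neil1, a DNA glycosylase, at 283 and 450.3 CPM (-0.67), the kinase Pim1 at 262 and 408 CPM (-0.64), Arl5c (-1.07), Frat2 (-1.31) and Snapc5 (-1.78, from 8 and 28 UMIs). Several of the 10 highest rested on single cells: all stress-high UMIs of Nts, Ccl5, Iglv2 and Gzma in the TAK-981 library came from 1 cell each, and a single cell gave 88% of those of Slpi and 53.6% of those of Dppa5a. Gzma and Ccl5 are products of cytotoxic lymphocytes, and NK cell markers summed to 13.5 CPM with TAK-981 and 0.32 CPM with vehicle in stress-high cells.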

How the data were processed

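Single-cell RNA libraries of A20 tumours, 1 per arm, were prepared with the 10x Genomics Chromium 5' kit, per the labels' protocols. The deposited values are whole-number counts of UMIs for each gene in each barcode, with no scaling by the authors. Cell Ranger 2.1.1 and Seurat 2 are named in the submitters' processing notes without saying for which step. No genome build is given in the sources used here. Tumours were dispersed through a 70 µm filter and depleted of dead cells, and about 3000 droplets with cells were targeted. No doublet caller was run, and an alternative left out the deepest cells.

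From the counts, A20 cells and stress-high cells were chosen as described, with Python 3.11.15, pandas 2.3.3, scipy 1.17.1 and numpy 2.4.6; figures used matplotlib 3.10.9. UMIs were summed per class and library and divided by the class sum. Log2 ratios carry exact conditional binomial 95% intervals, shares exact Clopper-Pearson ones, and classes with 0 UMIs a floor of 3 counts over the class; a PCR duplicate is collapsed by its UMI, but cells are not replicates. Genes needed 10 UMIs expected in the smaller class. Intervals of a difference between ratios assume that counts are independent. Thinning drew UMIs without replacement (seed 0). Calculations were tested on simulated counts. Gene names are those of the files, whose 28692 genes are matched by symbol. Symbols present more than once were left out of the gene lists. In the ratios over all genes they were kept, each with its gene identifier, as for the Dancr entry. Genes with close copies (Gbp, Ifit3, Tgtp, histones) are uncertain one by one.

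The members, the 37 gene lists and the alternatives were chosen with earlier results of these data known. Beyond list genes, named genes are the 15 highest and 10 lowest in stress-high cells that passed 2-fold in both libraries, and the 10 highest and lowest between arms by the interval bound nearest 0. A few genes are not reported here.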

Additional observations from a re-analysis of the deposited data

Results flagged for a closer look

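Barcodes with 10% or more of their UMIs from mitochondrial transcripts enter no comparison above, yet some of those with Cd79a also passed the stress score limit. They numbered 17 of 275 in the TAK-981 library (6.18%, exact binomial 95% interval 3.64 to 9.71%) and 4 of 88 in the vehicle library (4.55%, 1.25 to 11.2%), at median depths of 5972 and 7622 UMIs. The intervals overlap each other. The value was singled out because these barcodes lie outside the main measurement and their share was higher with TAK-981 than with vehicle.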

How the results depend on the processing

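Over the alternatives run, 84 values of the main results stayed within their limits, 18 moved and none reversed. For shares the limit was the counting error, and for counts of genes 1.5 times. For list medians it was the counting interval of the gene nearest the median, centred on the median, which is not an error of the median itself. With cells thinned to 4000 UMIs, the vehicle share was 8.67%, the vehicle median of ATF4 targets 0.41, and 24 genes were at least 2-fold higher and 6 lower in both libraries, 22 of the 24 among the 228. Taking the highest 4% gave shares of 5.30% with TAK-981 and 2.97% with vehicle, a vehicle median of 0.69 and 57 lower genes. Taking the highest 16% gave shares of 18.8% and 13.8% and 11 lower genes. A score without Trib3 gave a vehicle median of 0.39 and 19 lower genes, 30 expected UMIs gave 144 higher and 16 lower, and median of ratios scaling gave a vehicle median of 0.36, 88 higher and 78 lower.

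Reversed after thinning were, in vehicle cells, BC028528 (0.022), Angptl4 (0.55), Pls1 (0.30) and cytosolic heat shock (0.068), and between arms Nts (-0.052) and amino acid transport (0.15). Without Trib3, B cell identity in vehicle cells was 0.10, without Ddit3, amino acid transport between arms 0.017, and with the highest 8% of each library, heat shock in vehicle cells 0.049. The cause was not tested. Leaving out the cell richest in the list, tried after seeing the data, gave 0.66 for GTPases and 1.05 for interferon genes between arms. No paired analysis was possible because each arm has 1 library. In the thinned run the stress-high cells were also chosen anew, 197 with TAK-981 and 190 with vehicle. The part of depth in its smaller counts of called genes was not tested.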

Other observations

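Long noncoding transcripts took a larger share of the genes that were at least 2-fold higher in stress-high cells in both libraries than of all genes measured in both, 16 of 228 (7.02%) against 148 of 8773 (1.69%). Among those measured, 99 of 148 (66.9%) were above 0 in both libraries, not far from the 59.6% of all genes. Their median log2 ratios were 0.54 with TAK-981 and 0.38 with vehicle, where all genes had 0.25 and 0.20. Genes with Zfp symbols, most of them zinc finger factors, made up 10 of the 228 (4.39%) and 198 of the 8773 (2.26%). Of the 198, 158 (79.8%) were above 0 in both libraries, against 59.6% of all genes. Histone genes made up 7 (3.07%) and 31 (0.353%). No set test was made, and histone genes share reads between near-identical copies.

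Cells that reached the score limit on 1 score gene held interferon transcripts at 4083 CPM in the TAK-981 library (15 cells), against 2324 CPM in cells with 2 genes and 2756 CPM in cells with 3. In the vehicle library the same values were 1396 CPM in 3 cells, 1698 CPM and 1575 CPM.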
